A study of Saccharomyces cerevisiae with 4 samples.

Results

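The genes described here encode enzymes of the tricarboxylic acid cycle in budding yeast (Saccharomyces cerevisiae). They are CIT1, ACO1, IDH1, IDH2, KGD1, KGD2, LSC1, LSC2, FUM1 and MDH1, chosen by their systematic names, and they make up 10 of the 6207 reading frames in the deposited table. The cells were an slt2 mutant grown in YEPD, a rich glucose medium, at 24 °C. SLT2 encodes the mitogen-activated protein kinase of the cell wall integrity pathway. The sources used here give neither its allele nor the strain background, and no wild type or other control strain belongs to the comparison. Each culture was split, 1 part was left untreated and the other received zymolyase 100T, a preparation that digests cell wall glucan, at 5 units per ml, and RNA of both parts was compared after 3 h. Arrays 1 to 4 are 4 two-colour arrays of 2 cultures. RNA with zymolyase was labelled with Cy3 for arrays 1 and 3 and with Cy5 for arrays 2 and 4, and no label ties an array to a culture. The treated channel of array 3 has a source label that reads wild type, against its title and its other channel. RNA came from whole cultures, so fewer cells holding a transcript and less of it per cell cannot be told apart.

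The tricarboxylic acid cycle runs in the mitochondrial matrix, where it oxidises acetyl groups to carbon dioxide, passes electrons to the respiratory chain and supplies precursors of glutamate and aspartate. In yeast growing on glucose most of its genes are repressed. Their expression depends on the Hap2/3/4/5 complex, and the genes of the first steps, from citrate synthase to isocitrate dehydrogenase, can also be driven by the retrograde factors Rtg1 and Rtg3.

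The deposited values are log ratios of the 2 channels, taken here as log2, and neither the numerator nor the base is stated. Between arrays of swapped dyes, r over the genes ran from -0.60 to -0.30, and arrays 2 and 4 were therefore given the opposite sign. A positive value then lies on the side of the stress gene HSP12 (mean 2.63 ± 0.58, SD, n = 4 arrays) and a negative value on the side of the cell wall gene TIP1 (mean -1.17 ± 0.45). Which of these sides is higher with zymolyase stays unknown, so sides and sizes are given and no direction of change. SLT2 had a value on 0 arrays and could not check the labels. The SD of the values over the 4788 genes with a value on all 4 arrays was 0.36, 0.46, 0.65 and 0.61 on arrays 1 to 4. Spearman's rho between value and coding length across 4578 of these genes was -0.01, -0.18, 0.45 and 0.40 on arrays 1 to 4, and genes are not independent replicates. With 4 arrays, precision is limited throughout.

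Of the 10 cycle enzyme genes, 8 had a value on all 4 arrays. The means of all 8 lay on the HSP12 side, where 42.5% of tested genes had theirs, and ranged from 0.11 for KGD2 to 0.74 for IDH2. Their median was 0.50, or 1.42-fold, against a median of -0.06 over all 4788 tested genes. By limma with Benjamini-Hochberg adjustment over all tested genes, 0 of the 8 passed an adjusted p under 0.05, while 4.55% of tested genes did. At an unadjusted p under 0.05 there were 4 of the 8 (IDH2, IDH1, KGD1 and ACO1), beside 11.5% of tested genes on either side. All 4 lay on the HSP12 side, where the background was 8.54%. The model gave the 8 genes the same standard error, so these 4 are simply the genes with the largest means. The medians of the 8 genes on arrays 1 to 4 were 0.32, 0.37, 0.45 and 0.38. The median was thus similar on each array, while single genes were not and the arrays differ in spread. On array 1 no gene lay near the median, and the closest values on its sides were 0.15 (KGD1) and 0.50 (ACO1). HSP12-side values on all 4 arrays were found for ACO1, IDH1, IDH2 and MDH1, 4 of 8, beside 11.8% of tested genes.

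**Figure D1:**
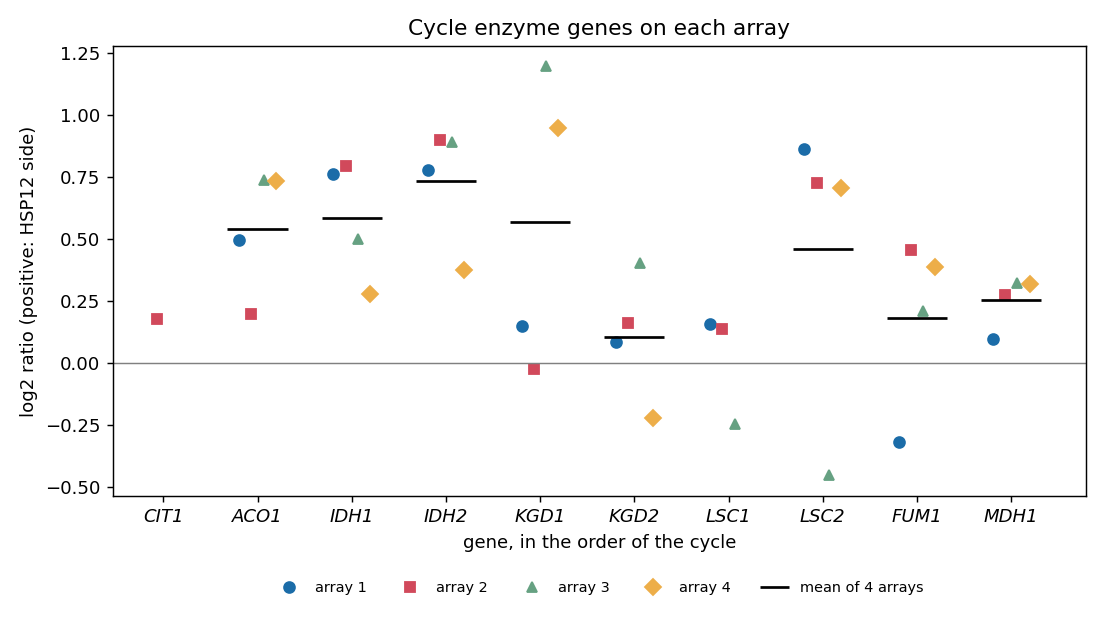
Log2 ratio of each of the 10 cycle enzyme genes on each array, signed so that positive values lie on the HSP12 side; coloured points are arrays and black lines are means of 4 arrays. IDH2 lies between 0.37 and 0.90 on every array, while KGD1 and LSC2 each have arrays near or below 0.

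The first steps of the cycle take in acetyl groups and carry citrate to alpha-ketoglutarate. CIT1 (YNR001C), the mitochondrial citrate synthase, had a value on array 2 alone, 0.18, and was not tested. ACO1 (YLR304C), aconitase, which turns citrate into isocitrate and also helps to maintain mitochondrial DNA, had values of 0.50, 0.20, 0.74 and 0.74 on arrays 1 to 4. All of its values lay on the HSP12 side, with array 2 lowest. Its mean was 0.54 ± 0.26 (SD, n = 4 arrays; limma adjusted p = 0.301).

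NAD-dependent isocitrate dehydrogenase is built from the regulatory subunit Idh1 and the catalytic subunit Idh2. IDH1 (YNL037C) had 0.76, 0.79, 0.50 and 0.28 on arrays 1 to 4, high on arrays 1 and 2 and lower on arrays 3 and 4. Its mean was 0.58 ± 0.24 (SD, n = 4 arrays), and its limma adjusted p was 0.228. IDH2 (YOR136W) had 0.78, 0.90, 0.89 and 0.37, again lowest on array 4. Within single arrays these values stood at percentiles 97.0, 97.0, 92.7 and 76.1 of the tested genes. Its mean of 0.74 ± 0.25 (SD, n = 4 arrays), or 1.67-fold, had a model interval from 0.26 to 1.21 and missed the threshold (limma adjusted p = 0.0542). Of all 8 genes IDH2 had the largest mean. As the model gave all 8 the same standard error, it was by that alone the nearest to a call. The difference of IDH2 minus IDH1 was 0.02, 0.11, 0.39 and 0.10 on arrays 1 to 4, so the catalytic subunit was slightly above the regulatory one on each array. A two-sided exact sign-flip test of such a difference over 4 arrays cannot go below p = 0.125, its value here, and arrays of 1 culture are not independent.

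IDH2 was called under 9 of 13 alternative settings with turned arrays, among them arrays taken as 4 separate replicates (adjusted p = 0.0214) and each array centred on its median (adjusted p = 0.0191). It was not called without array 1, 2 or 3, or with arrays 1 with 2 and 3 with 4 taken as the cultures, and its adjusted p ranged from 0.000809 to 0.304.

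**Figure D2:**
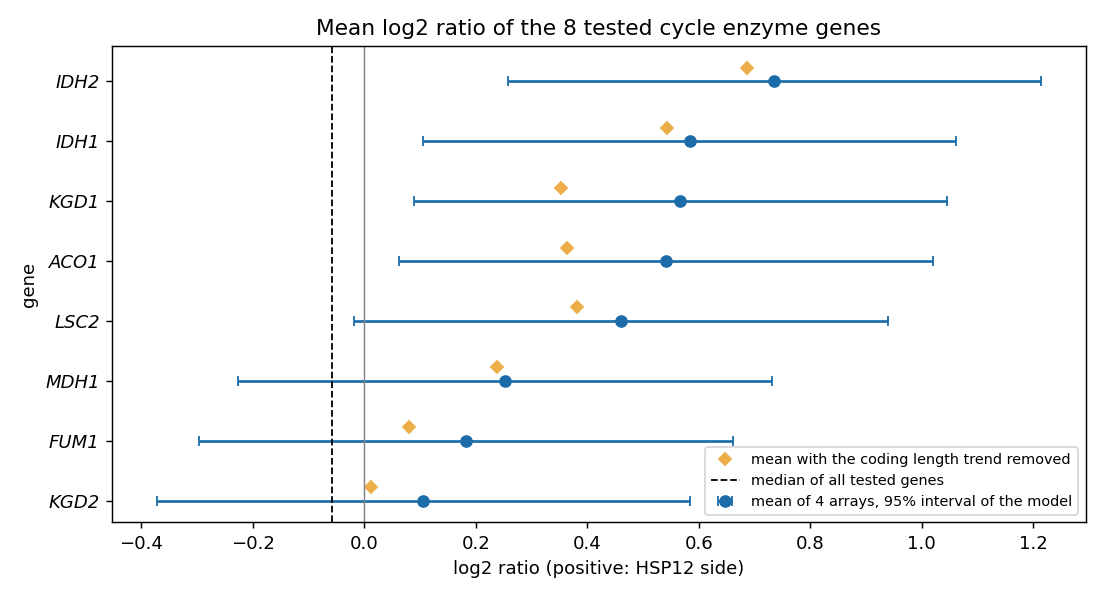
Mean log2 ratio of the 8 tested cycle enzyme genes with the 95% interval of the limma model (circles and bars) and the mean after the trend with coding length was removed from each array (diamonds); the dashed line is the median of all tested genes, -0.06. Intervals of IDH2, IDH1, KGD1 and ACO1 leave out 0, and KGD1 and ACO1, the genes with the longest coding lengths, moved most when the trend was removed. The model gave all bars the same width, so they do not show a gene's own spread between arrays.

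Alpha-ketoglutarate dehydrogenase joins the Kgd1 component, which decarboxylates the substrate, to Kgd2, the succinyltransferase, and to Lpd1, a dihydrolipoamide dehydrogenase shared with other complexes. KGD1 (YIL125W) had values of 0.15, -0.02, 1.20 and 0.95 on arrays 1 to 4. It was thus high on arrays 3 and 4 and close to 0 on arrays 1 and 2, with means of 1.07 and 0.06 for these pairs. Its overall mean was 0.57 ± 0.60 (SD, n = 4 arrays; limma adjusted p = 0.254). At 3045 bases KGD1 has the longest coding length of the 10 genes. Values rose with length on arrays 3 and 4 (Spearman's rho 0.45 and 0.40) and fell with it, more weakly, on array 2 (-0.18). With the trend removed, the mean of KGD1 was 0.63 on arrays 3 and 4, 0.07 on arrays 1 and 2 and 0.35 over all arrays. The part of length in its values was not tested further. The mean of KGD1 over the remaining arrays was 0.36 without array 3, 0.44 without array 4 and 0.76 without array 2, and no call resulted.

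KGD2 (YDR148C) had 0.09, 0.16, 0.40 and -0.22 on arrays 1 to 4. Its arrays lay on both sides of 0, and array 4, where KGD1 was high, was its lowest. The mean was 0.11 ± 0.26 (SD, n = 4 arrays; limma adjusted p = 0.923), with a model interval from -0.37 to 0.58. KGD1 minus KGD2 was 0.06 and -0.19 on arrays 1 and 2 and 0.80 and 1.17 on arrays 3 and 4. The exact sign-flip p of this difference was 0.375 (two-sided, n = 4 arrays). As the smallest exact sign-flip p that 4 arrays allow is 0.125, no conclusion on a difference is drawn from it. LPD1 (YFL018C) had 0.06, 0.13, 0.41 and 0.09, a mean of 0.17 without a call. KGD4 (YFR049W), a further subunit given here after its values were seen, had 0.20, 0.57, -0.41 and -0.22. Its mean was 0.04, also without a call, and it lay on the TIP1 side on arrays 3 and 4, where KGD1 was high.

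Succinyl-CoA ligase, the step that yields ATP by substrate-level phosphorylation, consists of the alpha subunit Lsc1 and the beta subunit Lsc2. LSC2 (YGR244C) had 0.87, 0.73, -0.45 and 0.70 on arrays 1 to 4. The values on arrays 1, 2 and 4 were close together on the HSP12 side, and array 3 lay on the TIP1 side. Its mean was 0.46 ± 0.61 (SD, n = 4 arrays; limma adjusted p = 0.470), and 0.77 over arrays 1, 2 and 4. The limma fit without array 3 tested culture averages, not this mean, and gave an adjusted p of 0.120. On arrays 1 and 2 LSC2 stood at percentiles 97.4 and 95.8 of the tested genes and on array 3 at percentile 16.6. LSC1 (YOR142W) had 0.16, 0.14 and -0.25 on arrays 1 to 3 and no value on array 4, so it was not in the main test. Like LSC2 it was lowest on array 3. In the fit of genes with at least 3 arrays its mean was 0.02 (limma adjusted p = 0.968). LSC2 minus LSC1 was 0.71 and 0.59 on arrays 1 and 2 and -0.21 on array 3.

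**Figure D3:**
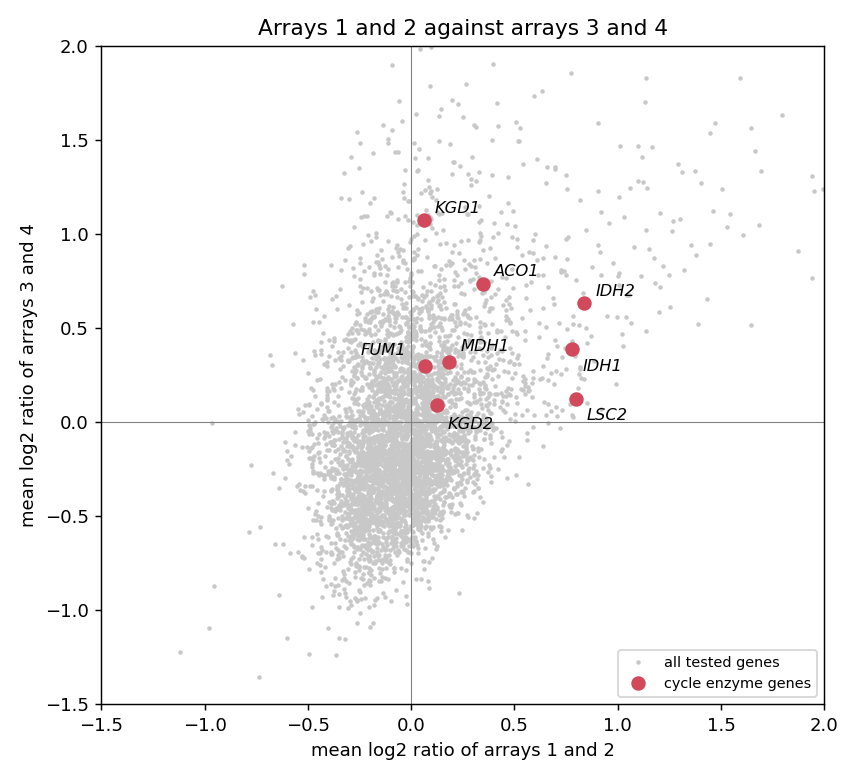
Mean log2 ratio of arrays 1 and 2 (x axis) against arrays 3 and 4 (y axis) for all tested genes (grey) and the 8 tested cycle enzyme genes (red); 64 genes lie outside the axes, which run from -1.5 to 2. IDH1, IDH2 and LSC2 have the largest values on arrays 1 and 2 among the 8 genes, and KGD1 has the largest on arrays 3 and 4.

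The last steps turn fumarate into malate and malate into oxaloacetate. FUM1 (YPL262W), fumarase, which works in mitochondria and in the cytosol, had -0.32, 0.46, 0.21 and 0.39 on arrays 1 to 4. Only array 1 lay on the TIP1 side. Its mean was 0.18 ± 0.35 (SD, n = 4 arrays; limma adjusted p = 0.864). By dye orientation, its mean was -0.06 on arrays 1 and 3 and 0.42 on arrays 2 and 4, and the part of the dye in this gap was not tested. LSC2 also had a gap of this kind, with 0.21 on arrays 1 and 3 and 0.72 on arrays 2 and 4. For the other 6 tested genes, the means of both orientations were within 0.28 of each other.

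MDH1 (YKL085W), mitochondrial malate dehydrogenase, had 0.10, 0.27, 0.32 and 0.32 on arrays 1 to 4. It varied least of the 8 genes and lay on the HSP12 side on each array. Its mean of 0.25 ± 0.11 (SD, n = 4 arrays) did not pass (limma adjusted p = 0.794). The model gave each of the 8 genes the same standard error, 0.24, and MDH1 was also called under 0 of 13 alternatives with turned arrays, the lowest adjusted p being 0.0837.

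Ordered by mean, the genes ran IDH2 (0.74), IDH1 (0.58), KGD1 (0.57), ACO1 (0.54), LSC2 (0.46), MDH1 (0.25), FUM1 (0.18) and KGD2 (0.11). Each step in this order was smaller than the standard error of 0.24 that the model shares among the 8 genes. That value is not the spread of a difference between genes on the same arrays. Apart from IDH2 minus IDH1, differences between neighbours in this order were not tested. The mean of ACO1, IDH1 and IDH2 was 0.68, 0.63, 0.71 and 0.46 on arrays 1 to 4, and that of KGD1, KGD2, LSC2, FUM1 and MDH1 was 0.18, 0.32, 0.34 and 0.43. The mean of the genes from citrate to alpha-ketoglutarate was thus above that of the later ones on each array, by 0.50, 0.31, 0.37 and 0.04. Single genes did not keep this order. LSC2 (0.87) was the highest of the 8 on array 1, and KGD1 (1.20 and 0.95) was the highest on arrays 3 and 4. This grouping follows the order of the cycle and was compared with the values known. The exact sign-flip p of the difference was 0.125 (two-sided, n = 4 arrays). That is the smallest p that 4 arrays allow, and no conclusion is drawn from it. Without array 3, whose label is in doubt, the means were 0.68 for IDH2, 0.61 for IDH1, 0.36 for KGD1, 0.48 for ACO1, 0.77 for LSC2, 0.23 for MDH1, 0.17 for FUM1 and 0.01 for KGD2. Their median was then 0.42, and 0 of the 8 were called, with LSC2 at the top of the order.

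Other genes of the pathway were taken from 6 lists with 58 genes, of which 44 had a value on all 4 arrays. Of these 44, 2 passed, both on the HSP12 side (limma, adjusted p under 0.05), beside 4.34% of tested genes on that side. They were IDP1 and PYC2. The TIP1 side had 0, beside 0.209% of tested genes. At an unadjusted p under 0.05 there were 0 of 6 other subunits, 3 of 10 isozymes, 2 of 13 genes of pyruvate entry, 0 of 2 of the glyoxylate cycle and gluconeogenesis, 2 of 7 carriers and 1 of 6 regulators, beside 11.5% of all tested genes. The medians of the list means were 0.10, 0.22, 0.21, -0.05, -0.29 and -0.06 in the same order, against 0.50 for the cycle enzymes and -0.06 for all tested genes.

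**Figure D4:**
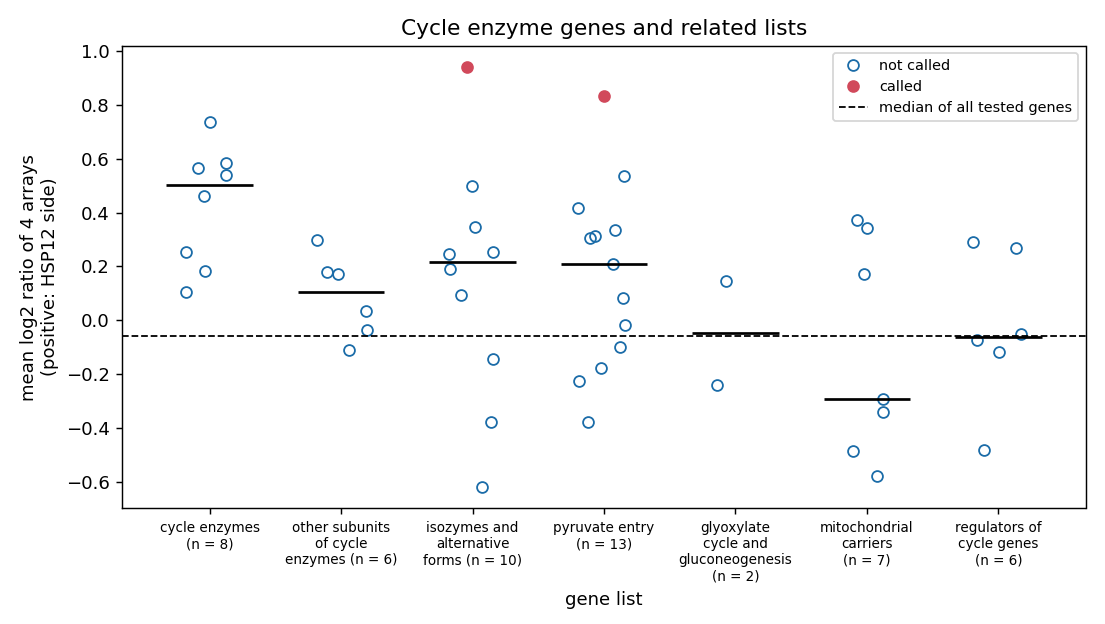
Mean log2 ratio over 4 arrays of each tested gene in the cycle enzyme group and in 6 lists of related genes; black lines are list medians, filled points are genes with a limma adjusted p under 0.05, and the dashed line is the median of all tested genes. The median of the cycle enzymes is 0.50 and that of the mitochondrial carriers -0.29, and IDP1 and PYC2 are the filled points.

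IDP1 (YDL066W), the mitochondrial isocitrate dehydrogenase that uses NADP instead of NAD, had 0.10, 0.51, 1.89 and 1.27 on arrays 1 to 4. Its mean was 0.94 ± 0.79 (SD, n = 4 arrays; limma adjusted p = 0.00374). PYC2 (YBR218C), a pyruvate carboxylase that makes oxaloacetate from pyruvate, had 0.10, 0.28, 1.83 and 1.12, with a mean of 0.83 ± 0.80 (SD, n = 4 arrays; limma adjusted p = 0.0173). Both were far higher on arrays 3 and 4 than on arrays 1 and 2, as KGD1 was, and their SDs were close to their means. The model gave both the shared standard error of 0.24, so these calls follow the means and not the genes' own spread. With 4 separate replicates, a dye term, genes on at least 3 arrays or the length trend removed, neither was called. With any 1 array left out neither was called either. The means of IDP1 over the remaining arrays were 1.22, 1.09, 0.63 and 0.83 without arrays 1, 2, 3 and 4. Those of PYC2 were 1.08, 1.02, 0.50 and 0.74. The limma fits tested culture averages instead of these means. Their adjusted p ran from 0.0913 to 0.287 for IDP1 and from 0.229 to 0.307 for PYC2. PYC2 has a coding length of 3543 bases. With the length trend removed the mean of PYC2 was 0.62 (limma adjusted p = 0.141) and that of IDP1 0.86 (0.126).

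Isozymes outside the mitochondrial cycle did not all lie on the side of their mitochondrial counterparts. MDH2 (YOL126C), the cytosolic malate dehydrogenase, had -0.70, -0.34, -0.68 and -0.77 on arrays 1 to 4. It lay on the TIP1 side on every array, with a mean of -0.62 ± 0.19 (SD, n = 4 arrays; limma adjusted p = 0.168), and did not pass. It passed in 5 of 13 alternatives with turned arrays, for example with 4 separate replicates (adjusted p = 0.0404). MDH1 minus MDH2 was 0.80, 0.61, 1.00 and 1.09 on arrays 1 to 4, with no overlap between the values of both genes. The exact sign-flip p of this difference was 0.125, the smallest that 4 arrays allow. CIT2 (YCR005C), the peroxisomal citrate synthase and a target of the retrograde factors, had 0.23, 0.43, 0.09 and 0.26 (mean 0.25 ± 0.14, limma adjusted p = 0.794, n = 4 arrays).

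SDH1 (YKL148C), the flavoprotein subunit of succinate dehydrogenase, the cycle enzyme that is also part of the respiratory chain, had 0.13, 0.35, 0.30 and 0.40 on arrays 1 to 4. Its mean was 0.30 ± 0.12, on the HSP12 side on each array and without a call. LAT1 (YNL071W) and PDA1 (YER178W), subunits of pyruvate dehydrogenase, which feeds acetyl groups into the cycle, had means of 0.30 ± 0.20 and 0.21 ± 0.13. MPC3 (YGR243W), a subunit of the mitochondrial pyruvate carrier, had 0.31 ± 0.20. Its gene lies next to LSC2 on the chromosome in the RefSeq table of assembly R64, and the RefSeq frames listed there do not overlap any of the 10 cycle enzyme genes. SDH1, LAT1, PDA1 and MPC3 were named for lying on 1 side on all arrays, as 11.8% of tested genes did on the HSP12 side, and none was called. Other subunits of the same complexes, given here after their values were seen, had means of -0.04 (SDH2), -0.11 (SDH3), 0.18 (SDH4), 0.08 (PDB1), -0.02 (PDX1), -0.18 (MPC1) and -0.38 (MPC2). The subunits of these complexes thus lay on both sides.

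Among carriers, OAC1 (YKL120W), which moves oxaloacetate into mitochondria, and YHM2 (YMR241W), which exchanges citrate and alpha-ketoglutarate, lay on the TIP1 side on all 4 arrays, as MDH2 and 18.5% of tested genes did. Their means were -0.49 ± 0.18 and -0.34 ± 0.17. AGC1 (YPR021C), an aspartate and glutamate carrier, had 0.34 ± 0.19, on the HSP12 side on each array. The carrier list thus held genes on both sides, and no carrier passed the test. DLD3 (YEL071W), a further retrograde target, had 0.27 ± 0.22 and no call. Of the retrograde regulators, RTG2 alone had 4 values. The Hap subunit genes, named after their values were seen, had means of -0.12 for HAP2, -0.48 for HAP3, 0.29 for HAP4, which encodes the regulated subunit, and -0.05 for HAP5. They lay on both sides, and none was called.

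The median profile of the 8 tested genes was compared with every other tested gene by the root mean square of the differences over the 4 arrays. The nearest genes were ISN1 (distance 0.06), CAK1 (0.08), LAP2 (0.10), YPK1 (0.11) and FLC1 (0.11), against a median distance of 0.55 over all other tested genes. The cycle enzyme genes themselves lay between 0.14 and 0.58 from this profile. The named genes were picked as the nearest of all others, so their being nearer than the members follows from that choice. In all, 207 other genes lay within 0.25 of the profile, and likeness over 4 arrays is a description of these arrays alone.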

How the data were processed

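The authors deposited log ratios of both channels of each array, taken here as log2 because of their size. No source used here gives the background correction, normalization, numerator or spot filter. Per the labels' protocols, the dyes were incorporated as dUTP during reverse transcription. Arrays 1 to 4 had deposited medians of -0.02, 0.05, -0.10 and 0.02. How the authors scaled, centred and signed them is unknown, and nothing was rescaled. The 2 control spots were left out, and 5677 of 6207 frames matched the RefSeq gene table of assembly R64. Genes with a value on all 4 arrays were tested.

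Arrays of a culture were averaged, and lmFit and eBayes of limma (version 3.58.1, in R 4.3.3) were run on 2 cultures, with an intercept, for both possible pairings of arrays (1 with 2 and 3 with 4, or 1 with 4 and 2 with 3). The larger p of each gene was kept and adjusted by the Benjamini-Hochberg method over all 4788 genes. In the first pairing the prior degrees of freedom were infinite, so every gene had a variance of 0.119 there. The p kept for each tested cycle enzyme gene, and for IDP1 and PYC2, came from the first pairing. It thus follows the mean of the gene and that shared variance, and not the gene's own spread between arrays or cultures. P-values of either pairing cover 2 cultures of 1 experiment, and which arrays share a culture is unknown. The smallest size called over all genes was 0.75. SDs over 4 arrays mix cultures and dyes.

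The members and lists were chosen with earlier results of these data known. All 10 members were named, and from each related list each called gene and up to 4 genes with the largest mean on the same side on all arrays, and the 5 nearest profiles. No source used here describes the spotted material, so signals of related genes such as MDH1 and MDH2, or IDH1 and IDH2, cannot be told apart with certainty. Alternatives covered pairing, replication unit, dye term, centring, scaling, missing values, robust moderation, coding length (loess, span 0.3), array signs and leaving out each array. With an array left out, the means given are those of the remaining arrays. The p of such a fit came from culture averages, where a lone array counted as a whole culture. The planned search for promoter motifs was not run.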

Additional observations from a re-analysis of the deposited data

Results flagged for a closer look

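For LSC2, array 3 stood apart from the other arrays, with -0.45 against 0.70 to 0.87. The gap to the nearest array was 0.879 of the whole range, above Dixon's 95% critical value for 4 values. Of 21 genes examined in this way, this was the only one, and chance alone marks about 1 group in 20. The 13 related genes among the 21 each lay on 1 side on every array, and most were picked for that. The 21 genes are thus not an unselected set to hold against that rate. Array 3 is also the array with the source label that reads wild type, and whether that label bears on the value was not tested.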

How the results depend on the processing

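The count of cycle enzyme genes called was 0 with arrays 1 with 2 and 3 with 4 as cultures, 5 with arrays 1 with 4 and 2 with 3 (ACO1, IDH1, IDH2, KGD1 and LSC2), where 29.6% of all tested genes were called, and 1 (IDH2) with 4 separate replicates, a dye term, median centring, equal scaling, genes on at least 3 arrays, robust moderation or the length trend removed. Leaving out 1 array gave 0 to 1. The median over members was 0.36 with the length trend removed, 0.062 with deposited signs and 0.41 to 0.44 with 1 array left out. The count of related genes called was 20 with arrays 1 with 4 and 2 with 3, 1 with 4 separate replicates, a dye term, genes on at least 3 arrays or the length trend removed (MDH2, on the TIP1 side, in place of IDP1 and PYC2), 1 with equal scaling (IDP1), 0 with deposited signs and 0 whichever array was left out. With deposited signs, where the sides cancel by construction, the means of LSC2 (-0.26), FUM1 (-0.24), MDH1 (-0.044), SDH1 (-0.081), CIT2 (-0.094), LAT1 (-0.15), PDA1 (-0.078) and AGC1 (-0.029) changed side. Under the other 13 alternatives the means of the 8 cycle enzyme genes stayed on the HSP12 side. The cause of the other changes was not tested. Each ratio already pairs both parts of a culture, and with a single group no further replicate block could be added. Signal over background is unknown.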
